A study of Mus musculus with 9 samples.

Results

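The proteasome genes of mouse quadriceps muscle were measured in 3 groups of mice: wild-type mice, mice lacking acid alpha-glucosidase (Gaa) and Gaa-deficient mice given a vector for a secreted form of the enzyme. The genes were chosen by name: symbols that begin with Psma to Psmg followed by a number, without the interferon-inducible subunits Psmb8, Psmb9 and Psmb10 and without pseudogenes. The name rule found 44 of the 13116 genes in the table, and all 44 were tested. They comprise 14 core subunits (7 alpha subunits, Psma1 to Psma7, and 7 beta subunits, Psmb1 to Psmb7), 17 subunits of the regulatory particle (6 ATPases of the Psmc family and 11 Psmd subunits), 3 chaperones that build the base of the regulatory particle, 4 chaperones that build the core, 4 activators, 1 inhibitor and Psmc3ip. Psmc3ip has a name that matches the rule but encodes a protein that interacts with Psmc3 and acts in meiotic recombination, so it was kept apart from both classes.

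The proteasome is the protease that degrades most ubiquitin-tagged proteins of the cell. Its barrel-shaped core has outer rings of alpha subunits, which gate the entrance, and inner rings of beta subunits, of which Psmb5, Psmb6 and Psmb7 cut proteins after hydrophobic, acidic and basic residues. The regulatory particle caps the barrel: its base holds the ring of ATPases that unfolds substrates, and its lid removes the ubiquitin chain. In muscle the pathway is best known for the breakdown of myofibrillar proteins during atrophy, where its subunit genes can rise together. The transcription factors Nfe2l1 and Nfe2l2 can raise subunit genes through antioxidant response elements in their promoters.

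The 9 mice were males aged 18 months. At 9 months of age they received a tail-vein injection, and quadriceps muscle was taken 9 months after it. WT_PBS denotes 3 mice of genotype WT given PBS, KO_PBS denotes 3 mice of genotype GAA KO given PBS, and KO_secGAA denotes 3 mice of genotype GAA KO given AAV8-sp7-delta8-hGAAco, which provides for expression of secGAA. The vector was given by the same route as PBS. No GAA KO group received a vector without secGAA, so an effect of the vector itself and one of secGAA cannot be told apart. There was also no WT group with vector. The promoter of the vector and the construction of the knockout are not stated in the labels. KO_PBS is the control of one comparison and the test group of another, so the comparisons share libraries. Values are the deposited normalized counts, which are reads per 1000000 after a scaling factor for each library. A gene rose or fell where the adjusted p of limma was under 0.05, Benjamini-Hochberg adjusted over all 13089 genes tested. Log2 fold changes are on the scale of log2(value + 0.5), and n is 3 mice in each group. Mouse numbers only name the mice of a group.

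The libraries held 9299156 to 15957106 reads in the genes of the table. By group these were 1.55e+07 to 1.60e+07 (WT_PBS), 9.30e+06 to 1.44e+07 (KO_PBS) and 1.05e+07 to 1.44e+07 (KO_secGAA). Every WT_PBS library thus held more reads than any library of the Gaa-deficient mice, so depth and genotype go together. Gaa itself was at 296, 129 and 264 (WT_PBS), 17.8, 14.5 and 14.0 (KO_PBS) and 15.1, 15.6 and 16.6 (KO_secGAA) normalized counts, with a log2 fold change of -3.77 for KO_PBS against WT_PBS (adjusted p 3.1e-05). All 5 muscle fibre markers (Ckm, Acta1, Ttn, Myh4 and Des) were detected, with summed normalized counts of 110445 to 135539 (WT_PBS), 83594 to 95585 (KO_PBS) and 95713 to 110632 (KO_secGAA). In KO_PBS against WT_PBS, Des rose and Ckm and Ttn fell in limma, and edgeR, DESeq2 and voom each gave 1 risen and 4 fallen fibre markers, while without the column scaling 1 rose and none fell. Of 7 macrophage markers, 3 rose in KO_PBS against WT_PBS (Cd68, Mpeg1 and Lyz2), and their summed level was 72.4 to 119 (WT_PBS), 196 to 281 (KO_PBS) and 102 to 220.2 (KO_secGAA). Of 12 tested markers of endothelial, mesenchymal, fat, T, blood and satellite cells, none rose and 2 fell (Pecam1 and Cd3e). In limma 2 were higher and 4 lower at an unadjusted p under 0.05, against 4629 of all 13089 genes in either direction. By edgeR, DESeq2 or voom 0 rose, and by edgeR only Pecam1 fell. Without the column scaling 2 of these 12 rose and none fell, and 6 of the 7 macrophage markers rose. Of all genes, 10.9% rose and 11.0% fell with the scaling, and 34.1% rose and 3.95% fell without it. The part of these cell-type markers in the results on proteasome genes was not tested. In whole muscle, fewer cells of a type and less RNA per cell cannot be told apart.

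Most proteasome genes did not pass the test between the Gaa-deficient and the wild-type muscle in the deposited values. Of the 44 genes, 7 rose, 1 fell and 36 did not pass, where 10.9% of all genes tested rose and 11.0% fell. Those that rose were the alpha subunit Psma5, the ATPases Psmc3 and Psmc6, the lid subunit Psmd11, the base chaperone Psmd5, the core chaperone Psmg4 and the activator Psme2. The activator subunit Psme1 was the one that fell. The median log2 fold change of the 44 genes was 0.074, with a median absolute value of 0.10, where the median absolute value of all genes tested was 0.27. The log2 fold change lay within 0.25 of 0 for 32 of the 44 genes (72.7%), against 47.4% of all genes tested. The groups did not overlap for 16 of the 44 genes, against 39.7% of all genes tested.

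**Figure D1:**
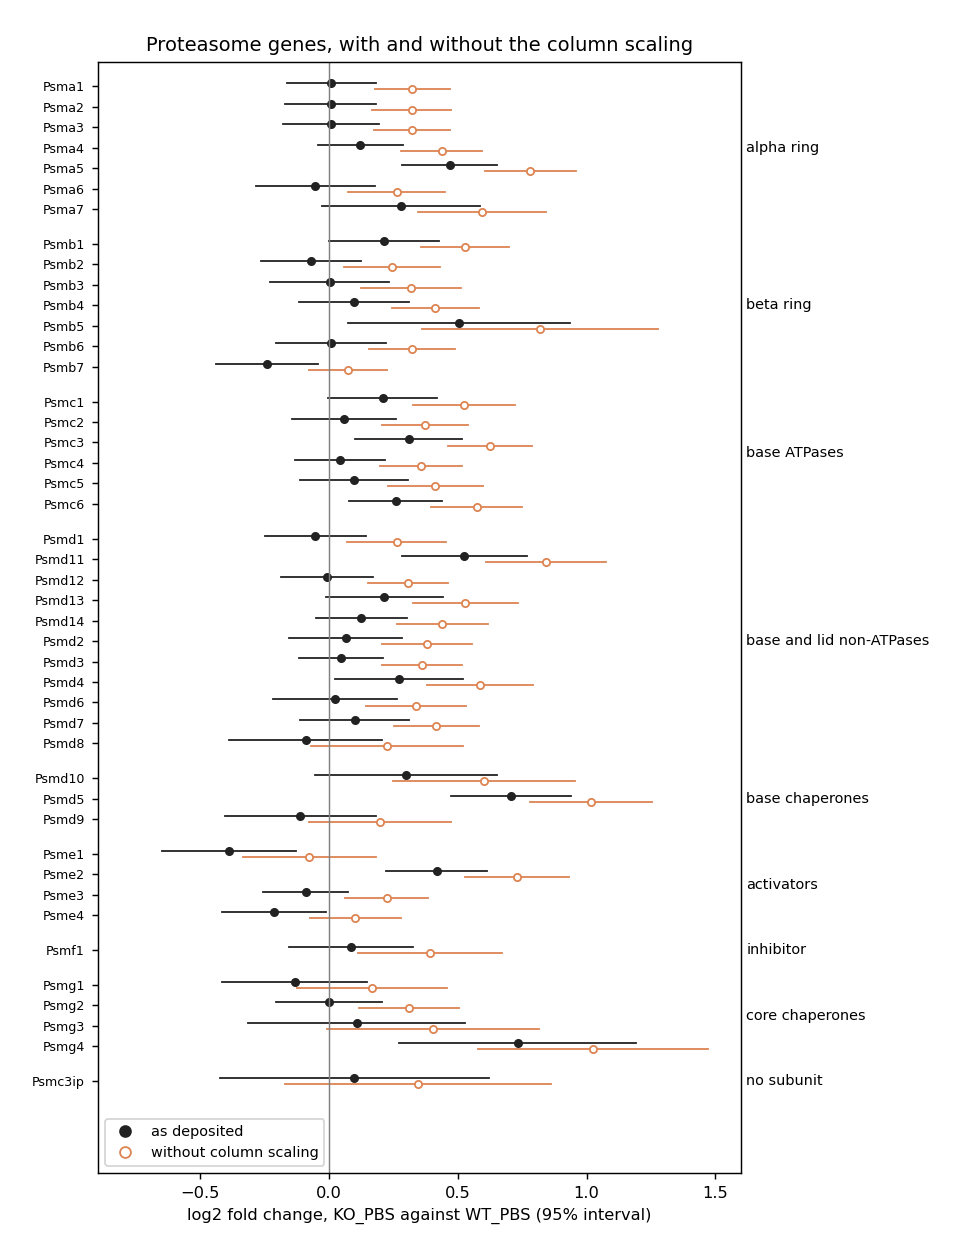
Log2 fold change of each of the 44 genes in KO_PBS against WT_PBS (horizontal axis, with its 95% interval), by class. Filled black points are the deposited values and open orange points the values per 1000000 reads without the scaling factor. In the deposited values 7 genes passed the test as higher and 1 as lower, and without the scaling 36 passed as higher and 0 as lower.

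Core and regulatory subunits spanned similar levels per length. Length was that of all annotated exons of a gene, overlaps counted once, and not of an expressed transcript. These levels therefore depend on the annotation. In the WT_PBS mice, core subunits stood at 23.4 (Psma2) to 118 (Psmb5) normalized counts per kilobase of exon, with a median of 46.7. Regulatory subunits stood at 16.3 (Psmd11) to 103 (Psmd8), with a median of 44.5 on the same scale. The least abundant gene of the 44 was Psmc3ip, at 14 to 36 reads in a library. The median SD within groups was 0.10 on the log2 scale for core and 0.11 for regulatory subunits, and 0.13 for all genes at a mean of 50 normalized counts or more.

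The upstream sequences of 4 genes are shown here: Psma5, Psmd11 and Psmc6 rose, and Psmb5 is the catalytic subunit with the largest log2 fold change. They come from RefSeq on GRCm38.p6, run 5′ to 3′ on the strand of the gene, and end at the base before the annotated start of the gene. Capitals mark matches to the antioxidant response element, searched as TGACNNNGC on both strands. The Psma5 stretch is chr3:108256676-108256925 on the plus strand, that of Psmd11 chr11:80428365-80428614 on the plus strand, that of Psmc6 chr14:45329574-45329787 on the plus strand and that of Psmb5 chr14:54618023-54618245 on the minus strand.
Psma5: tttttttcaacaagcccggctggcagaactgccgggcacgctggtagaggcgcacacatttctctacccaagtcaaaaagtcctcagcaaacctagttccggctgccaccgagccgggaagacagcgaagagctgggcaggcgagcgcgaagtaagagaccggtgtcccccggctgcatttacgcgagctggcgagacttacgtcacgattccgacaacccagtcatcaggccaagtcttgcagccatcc
Psmd11: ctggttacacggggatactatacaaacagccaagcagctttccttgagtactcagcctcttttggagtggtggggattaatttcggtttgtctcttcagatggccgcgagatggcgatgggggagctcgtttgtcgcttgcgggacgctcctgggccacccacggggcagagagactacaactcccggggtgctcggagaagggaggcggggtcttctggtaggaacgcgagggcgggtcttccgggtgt
Psmc6: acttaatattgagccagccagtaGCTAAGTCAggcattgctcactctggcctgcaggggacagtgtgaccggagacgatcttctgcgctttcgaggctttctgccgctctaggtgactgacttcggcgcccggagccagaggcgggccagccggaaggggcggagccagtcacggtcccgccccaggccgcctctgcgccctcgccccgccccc
Psmb5: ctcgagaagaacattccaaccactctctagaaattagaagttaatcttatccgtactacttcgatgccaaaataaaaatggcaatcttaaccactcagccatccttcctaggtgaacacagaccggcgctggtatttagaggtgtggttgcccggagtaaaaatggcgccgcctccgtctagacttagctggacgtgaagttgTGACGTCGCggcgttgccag
The Psmb5 stretch holds the element on the strand of the gene, with its first base 20 bases before the annotated start of the gene. The match in Psmc6 is on the other strand and begins 191 bases before that start. The stretches of Psme2 and Psmg4, which also rose, are not shown and held no match to the element. In RefSeq windows of 300 bases (250 before the RefSeq start and 50 after it), 6 of the 40 windows of 37 members held the element (15%), against 12.4% of 32851 windows of all genes. The members with it were Psmb5, Psmb6, Psmc6, Psmd9, Psmd12 and Psme4, and only Psmc6 of these passed the test. The CCAAT box, searched as CCAAT on both strands, was in 32.5% of the members' windows and 37.4% of all windows. The interferon-stimulated response element, searched on both strands as GAAA, any 2 bases and GAAA again, was in 5 of the members' windows (12.5%) and 3.44% of all windows. Its members were Psmb3, Psmd4, Psmd9, Psme1 and Psmg4, of which Psme1 fell and Psmg4 rose.

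Among the 7 alpha subunits, Psma5 alone passed the test. Psma5, a subunit of the outer ring whose gene lies at chr3:108256926-108279974 (GRCm38, plus strand), had normalized counts of 54.7, 52.1 and 56.0 (WT_PBS), 75.4, 73.0 and 77.3 (KO_PBS) and 61.7, 65.1 and 72.7 (KO_secGAA). Every KO_PBS mouse was above every WT_PBS mouse, and the KO_secGAA mice lay between the 2 groups. The log2 fold change of KO_PBS against WT_PBS was 0.47 (SE 0.083, adjusted p 0.00366), a 1.38-fold rise. The call was kept in all 20 alternative settings tried. The other alpha subunits ranged from -0.054 (Psma6) to 0.28 (Psma7, adjusted p 0.178). Without KO_PBS mouse 3 Psma7 passed as well (0.44, adjusted p 0.0242). Psma1, Psma2 and Psma3 had log2 fold changes of 0.0082, 0.0065 and 0.0065.

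None of the 7 beta subunits passed the test in limma, edgeR, DESeq2 or voom. In limma 2 had an unadjusted p under 0.05 (Psmb5 and Psmb7), against 4629 of all 13089 genes. Psmb5, which carries the chymotrypsin-like activity, had normalized counts of 141, 88.7 and 89.8 (WT_PBS), 169, 129.7 and 147 (KO_PBS) and 116, 128 and 90.3 (KO_secGAA). The WT_PBS mice were uneven: mouse 1 was within the range of the KO_PBS mice, and mice 2 and 3 were below all of them. The log2 fold change was 0.50 (95% interval 0.073 to 0.94, adjusted p 0.0913). Without WT_PBS mouse 1 it was 0.72 (adjusted p 0.0119), so whether Psmb5 passed depended on 1 library. Psmb6, the caspase-like subunit and the core gene nearest the median of its class, had normalized counts of 151, 162 and 169.9 (WT_PBS), 175, 161 and 149.5 (KO_PBS) and 145, 169 and 170.0 (KO_secGAA), with a log2 fold change of 0.0072 (95% interval -0.20 to 0.22). The groups of Psmb6 overlapped throughout. Psmb7, the trypsin-like subunit, had normalized counts of 278, 283 and 295 (WT_PBS), 268, 234 and 223 (KO_PBS) and 249.7, 255 and 279.7 (KO_secGAA). All KO_PBS mice were below all WT_PBS mice for Psmb7, with a log2 fold change of -0.24 that did not pass (adjusted p 0.0814). Without KO_PBS mouse 1 Psmb7 passed as lower (-0.32, adjusted p 0.0384). Its direction turned without the column scaling, where the log2 fold change was 0.074. The non-catalytic beta subunits Psmb1 to Psmb4 ranged from -0.071 (Psmb2) to 0.21 (Psmb1, adjusted p 0.145). Psmb1 passed with quantile normalization (0.25, adjusted p 0.0420), and all beta subunits but Psmb7 passed as higher without the column scaling.

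In the base of the regulatory particle, 2 of the 6 ATPases rose, where 10.9% of all genes rose. Psmc3 had normalized counts of 225, 220.0 and 231 (WT_PBS), 315, 266 and 260.1 (KO_PBS) and 234, 235 and 266 (KO_secGAA), and all KO_PBS mice were above all WT_PBS mice, mouse 1 by the widest margin. Its log2 fold change was 0.31 (adjusted p 0.0407). Psmc6 had normalized counts of 106, 106 and 109 (WT_PBS), 134, 119 and 131 (KO_PBS) and 126, 114 and 131 (KO_secGAA), again with no overlap between KO_PBS and WT_PBS, and its log2 fold change was 0.26 (adjusted p 0.0457). Psmc6 did not pass by edgeR or voom. Both calls were close to the threshold: each was lost in 6 of the 9 fits that left out 1 library. For Psmc3 these left out any WT_PBS mouse, KO_PBS mouse 1 or 2, or KO_secGAA mouse 2, with adjusted p up to 0.119. For Psmc6 they left out any WT_PBS mouse, KO_PBS mouse 1 or 3, or KO_secGAA mouse 1, with adjusted p up to 0.126. The log2 fold changes in these fits were 0.22 to 0.36 for Psmc3 and 0.22 to 0.31 for Psmc6. The other ATPases had log2 fold changes of 0.042 (Psmc4) to 0.21 (Psmc1). Psmc5, nearest the median of the regulatory class, had normalized counts of 144, 139 and 144 (WT_PBS), 165, 139.8 and 152 (KO_PBS) and 129, 148 and 157 (KO_secGAA), and its log2 fold change was 0.10 (adjusted p 0.506).

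Of the 11 non-ATPase subunits of the base and lid, only Psmd11 passed the test. Psmd11, a lid subunit whose gene lies at chr11:80428615-80473248 (GRCm38, plus strand), had normalized counts of 101, 95.6 and 115 (WT_PBS), 143, 156 and 150.0 (KO_PBS) and 128, 166 and 152 (KO_secGAA). Both groups of Gaa-deficient mice were above every WT_PBS mouse. The log2 fold change of KO_PBS against WT_PBS was 0.53 (SE 0.11, adjusted p 0.00791), a 1.44-fold rise that passed in all 20 alternative settings. Psmd2, a scaffold and docking site of the base for ubiquitin-like domains, had normalized counts of 293, 282 and 305 (WT_PBS), 337, 294 and 290.1 (KO_PBS) and 269, 274 and 327 (KO_secGAA), with a log2 fold change of 0.064 (adjusted p 0.685). Psmd4, a ubiquitin receptor, had normalized counts of 171, 150.2 and 167 (WT_PBS), 223, 184 and 184 (KO_PBS) and 154, 169 and 193 (KO_secGAA). Its log2 fold change was 0.27 (95% interval 0.023 to 0.52), which did not pass after adjustment (adjusted p 0.111). Psmd14, the metalloprotease that removes ubiquitin chains, had normalized counts of 60.6, 56.9 and 55.2 (WT_PBS), 63.4, 63.5 and 61.6 (KO_PBS) and 57.1, 55.6 and 62.8 (KO_secGAA), with a log2 fold change of 0.12 (adjusted p 0.293). Psmd2, Psmd4 and Psmd14 thus had no call in the deposited values. Psmd4 passed with quantile normalization (0.35, adjusted p 0.0167), and all 3 passed without the column scaling, at 0.38, 0.59 and 0.44. The remaining 7 subunits ranged from -0.091 (Psmd8) to 0.21 (Psmd13).

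The 2 largest log2 fold changes of the 44 genes belonged to assembly chaperones, which are absent from the finished particle. Psmd5, which binds ATPases of the base during assembly, had normalized counts of 18.0, 19.5 and 18.9 (WT_PBS), 28.2, 35.1 and 30.1 (KO_PBS) and 24.2, 26.8 and 27.1 (KO_secGAA). All KO_PBS mice were above all KO_secGAA mice, and these were above all WT_PBS mice. The log2 fold change of KO_PBS against WT_PBS was 0.71 (SE 0.10, adjusted p 0.00144), a 1.63-fold rise kept in all 20 alternative settings. Psmg4, a chaperone of the alpha ring with low levels, had normalized counts of 4.90, 4.88 and 4.70 (WT_PBS), 7.53, 11.4 and 6.76 (KO_PBS) and 4.65, 6.25 and 6.95 (KO_secGAA). The WT_PBS mice lay close together, and KO_PBS mouse 2 stood above the other 2 mice of its group. Its log2 fold change was 0.73 (SE 0.21, adjusted p 0.0303). That call was lost in 4 of the 9 fits that left out 1 library (any WT_PBS mouse, or KO_PBS mouse 2), with adjusted p up to 0.0977 and a log2 fold change of 0.52 without KO_PBS mouse 2. The other 2 base chaperones, Psmd9 and Psmd10, had log2 fold changes of -0.11 and 0.30, and the core chaperones Psmg1, Psmg2 and Psmg3 -0.13, -0.00015 and 0.11. None of these 5 passed.

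The partner subunits of the interferon-inducible activator, Psme1 and Psme2, moved in opposite directions in the deposited values, although the fall of Psme1 did not pass without the column scaling. Both encode subunits of the ring that opens the core without ATP. Psme2 had normalized counts of 28.5, 30.1 and 28.5 (WT_PBS), 37.3, 41.9 and 37.8 (KO_PBS) and 26.8, 30.4 and 29.3 (KO_secGAA). All KO_PBS mice were above every other mouse, and the KO_secGAA and WT_PBS mice overlapped. The log2 fold change was 0.42 (SE 0.088, adjusted p 0.00861) and passed in all 20 alternative settings. Psme1 had normalized counts of 39.5, 38.0 and 40.2 (WT_PBS), 26.3, 34.8 and 29.0 (KO_PBS) and 30.6, 34.0 and 37.4 (KO_secGAA). All KO_PBS mice were below all WT_PBS mice, and Psme1 fell by 0.39 on the log2 scale (SE 0.12, adjusted p 0.0387). Without the column scaling its log2 fold change was -0.077 (adjusted p 0.626). The call was also lost without any WT_PBS mouse, KO_PBS mouse 1 or 3, or KO_secGAA mouse 2, with adjusted p up to 0.116. The ratio of Psme2 to Psme1 within a library does not depend on the scaling factor: it was 0.741 ± 0.0442 (WT_PBS), 1.31 ± 0.106 (KO_PBS) and 0.850 ± 0.0579 (KO_secGAA; SD, n = 3). The KO_PBS ratios of 1.42, 1.20 and 1.30 lay above all others, and the KO_secGAA ratios lay between 0.784 and 0.892.

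The annotation bears on how far the Psme2 value can be trusted. Psme1 (chr14:55578123-55581529, plus strand) and Psme2 (chr14:55587441-55591113, minus strand) lie on the same chromosome with 5911 bases between them on GRCm38. The Psme2 transcript is 99.4% identical over 794 bases to that of Psme2b, a near copy that was not analysed here, so the counting could split reads between them and the Psme2 level is uncertain. The macrophage markers given above were higher in the KO_PBS mice as well, and their part in the Psme2 result was not tested.

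The other activators and the inhibitor did not pass. Psme3, which forms the nuclear activator ring, had normalized counts of 57.8, 55.7 and 59.8 (WT_PBS), 54.8, 53.5 and 54.2 (KO_PBS) and 52.4, 51.7 and 56.4 (KO_secGAA), with a log2 fold change of -0.091 (adjusted p 0.420). Psme4, a large single-chain activator, had normalized counts of 226, 242 and 265 (WT_PBS), 212, 207 and 212 (KO_PBS) and 222, 211 and 251 (KO_secGAA). Its log2 fold change was -0.21 (95% interval -0.41 to -0.014, adjusted p 0.118) and its direction turned without the column scaling (0.10). Psmf1, an inhibitor of the core, had normalized counts of 14.5, 14.3 and 13.7 (WT_PBS), 14.4, 13.8 and 17.1 (KO_PBS) and 13.5, 13.5 and 13.7 (KO_secGAA), with a log2 fold change of 0.084 (adjusted p 0.615). Psmc3ip, which is no subunit, had a log2 fold change of 0.10 (95% interval -0.42 to 0.62).

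**Figure D2:**
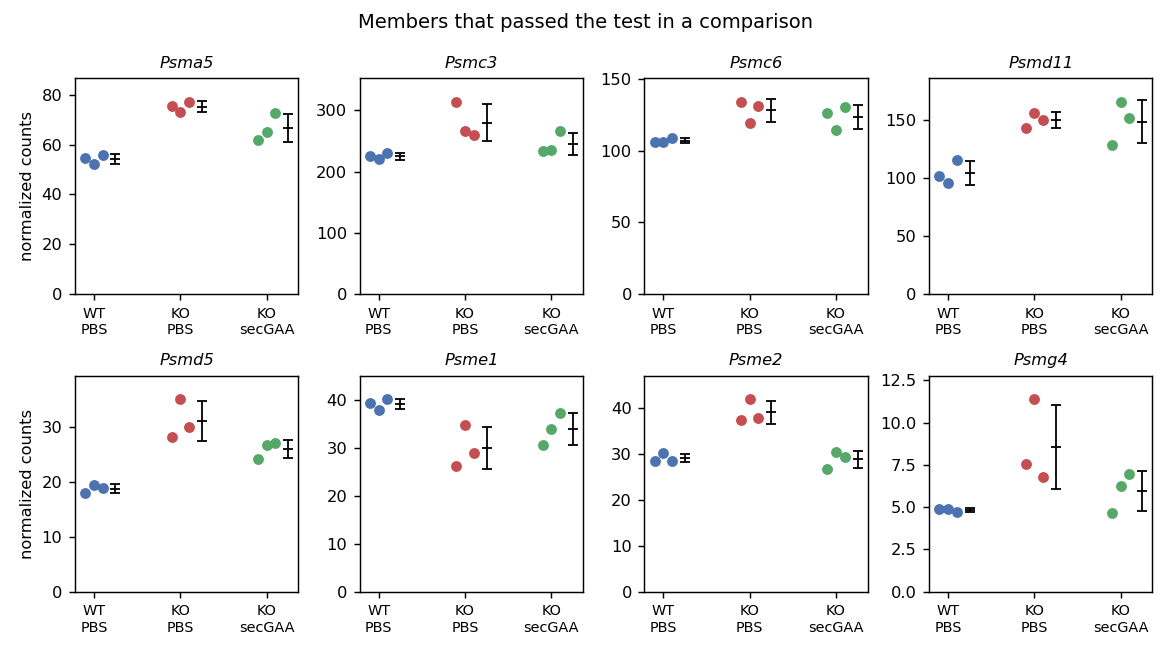
Normalized counts (vertical axes, from 0) of the 8 genes that passed the test in a comparison, 1 point per mouse, with the mean and SD of each group of 3 mice beside the points. The KO_PBS mice are above all WT_PBS mice for Psma5, Psmc3, Psmc6, Psmd11, Psmd5, Psme2 and Psmg4, and below them for Psme1.

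The column scaling decided how the proteasome genes as a whole read. The deposited values had been divided by scaling factors of 0.873 to 0.914 in the WT_PBS libraries, 1.07 to 1.17 in the KO_PBS libraries and 0.963 to 1.03 in the KO_secGAA libraries. The share of reads taken by the 20 most abundant genes went the other way: 37.7% ± 0.457 (WT_PBS), 30.1% ± 0.235 (KO_PBS) and 33.9% ± 0.831 (KO_secGAA; SD, n = 3). As a plain share of all reads, the 44 genes took 0.434% ± 0.0137 (WT_PBS), 0.571% ± 0.0190 (KO_PBS) and 0.489% ± 0.0163 (KO_secGAA). The core subunits took 0.158%, 0.206% and 0.179% of the reads in that order, and the regulatory subunits 0.232%, 0.314% and 0.263%. The share of the 44 genes was higher in every KO_PBS mouse than in any other mouse.

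Without the scaling factors, 36 of the 44 genes rose in KO_PBS against WT_PBS and none fell, where 34.1% of all genes rose and 3.95% fell. The same 36 genes and no other of the 44 had an unadjusted p under 0.05, against 6378 of all 13116 genes in either direction. The removal also moved the median log2 fold change of all genes by about the same amount, from 0.010 to 0.31. Core subunits then had a median of 0.32 with 13 of 14 risen, and regulatory subunits a median of 0.41 with 16 of 17 risen. The exceptions were Psmb7 in the core and Psmd8 in the regulatory class, at 0.074 and 0.23. Relative to the median of all genes, the class medians stood 0.017 (core) and 0.11 (regulatory) higher without the scaling, and -0.0027 and 0.086 with it. Every core and regulatory subunit had a WT_PBS mean above 50 normalized counts. Genes at a mean of 50 or more had lower medians than all genes, 0.23 without the scaling and -0.082 with it. Both class medians stood above those medians in either scaling. The KO_PBS and WT_PBS mice did not overlap for 38 of the 44 genes without the scaling, against 51.7% of all genes.

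**Figure D3:**
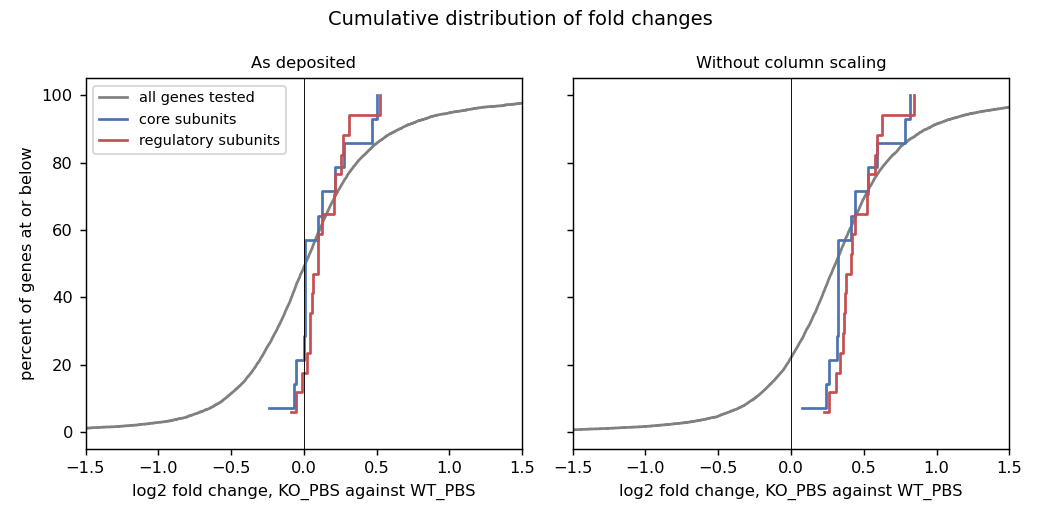
Cumulative percent of genes (vertical axes) at or below each log2 fold change of KO_PBS against WT_PBS (horizontal axes) for all genes tested, the 14 core and the 17 regulatory subunits, with the deposited values (left) and without the column scaling (right). Both proteasome curves are steeper than that of all genes, and all 3 curves shift to the right when the scaling is left out, with medians of 0.31 (all genes), 0.32 (core) and 0.41 (regulatory).

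Core and regulatory subunits moved together from mouse to mouse. With the deposited values, the average of the 14 core subunits on the log2 scale, relative to the WT_PBS mean, was 0.0099, -0.028 and 0.019 (WT_PBS), 0.21, 0.060 and 0.022 (KO_PBS) and -0.065, 0.063 and 0.12 (KO_secGAA). The regulatory average was 0.024, -0.064 and 0.040 (WT_PBS), 0.22, 0.073 and 0.091 (KO_PBS) and -0.044, 0.0086 and 0.14 (KO_secGAA). KO_PBS mouse 1 was the highest of the 9 for both classes. The difference between the classes (core minus regulatory) was -0.015, 0.036 and -0.021 (WT_PBS), -0.014, -0.013 and -0.069 (KO_PBS) and -0.021, 0.055 and -0.024 (KO_secGAA). The 3 groups overlapped in that difference, with means of -0.032 ± 0.032 (KO_PBS) and 0.0032 ± 0.045 (KO_secGAA; SD, n = 3). A factor applied to a whole library nearly cancels in that difference, which without the scaling was -0.015, -0.013 and -0.070 in the KO_PBS mice. Leaving out the scaling moved the core averages of the KO_PBS mice to 0.46, 0.37 and 0.41 and the regulatory ones to 0.47, 0.38 and 0.48.

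**Figure D4:**
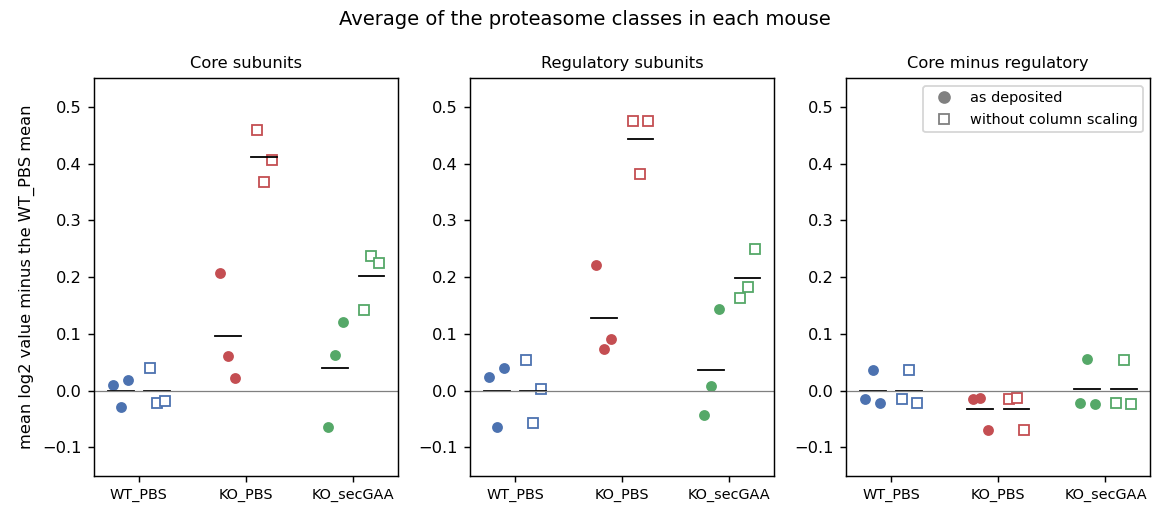
Average log2 value of the core subunits (left), of the regulatory subunits (middle) and their difference (right) in each mouse, minus the WT_PBS mean. Filled circles are deposited values, open squares values without the column scaling, and bars group means. The left and middle panels rise in the KO_PBS mice without the scaling, to 0.37 or more, while the 3 groups overlap in the right panel with either scaling.

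The class medians of the single-gene fold changes lay further apart than the class averages for KO_PBS against WT_PBS. Relative to the WT_PBS mean, the KO_PBS averages were 0.096 (core) and 0.13 (regulatory), with a difference of -0.032. The median was 0.0077 for the core and 0.096 for the regulatory class, a difference of -0.089. In the core 1 of 14 rose and in the regulatory class 3 of 17, where 10.9% of all genes rose. Neither class had a subunit that fell. Of the 2374 genes at a mean of 50 normalized counts or more, 308 rose and 552 fell. The core median was so near 0 that its sign turned with DESeq2's size factors (-0.0036). No test was made of the 2 medians against each other, since subunits of a class are not replicates. As a description over the 9 libraries, the Pearson r of a core subunit with the mean of the other core subunits had a median of 0.65 (range -0.042 to 0.91), and that of a regulatory subunit with the core mean a median of 0.73 (range 0.11 to 0.93). The libraries share depth and scaling, so these values carry both. The genes outside the family most like the core mean, of 13045 compared, were Eif3i (r = 0.97), a subunit of a translation initiation factor, ENSMUSG00000115368 (0.95) and Ttc1 (0.94).

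Treatment with the vector was followed by few differences between the Gaa-deficient groups. In KO_secGAA against KO_PBS, no proteasome gene rose and 1 of 44 fell, where 1.37% of all genes rose and 2.31% fell. The gene that fell was Psme2, by 0.43 on the log2 scale (SE 0.088, adjusted p 0.0325), to values that overlapped those of the WT_PBS mice. In limma 0 of the 44 rose and 5 fell at an unadjusted p under 0.05, against 2530 of all 13089 genes in either direction. By edgeR, DESeq2 and voom, 0 of the 44 rose as well and 1 fell, Psme2. That call was lost without WT_PBS mouse 3 or any single KO_PBS or KO_secGAA mouse, with adjusted p up to 0.109, and when the fit held only the 2 groups. The log2 fold changes of Psme2 in the fits that left out 1 library were -0.47 to -0.38. The median log2 fold change was -0.048 for the core and -0.077 for the regulatory subunits, against 0.00033 for all genes. The groups did not overlap for 6 of the 44 genes, against 24.0% of all genes.

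The other members that rose in KO_PBS are given side by side with their values after treatment, since the comparisons share the KO_PBS libraries. Psmd11 had a log2 fold change of -0.017 in KO_secGAA against KO_PBS (95% interval -0.26 to 0.23). For Psmd5 it was -0.25 (95% interval -0.48 to -0.018, adjusted p 0.228), with no overlap between the groups. Psma5 had -0.18 (95% interval -0.36 to 0.0054, adjusted p 0.272), Psmc3 -0.19 (adjusted p 0.308), Psmc6 -0.052 (adjusted p 0.779) and Psmg4 -0.47 (adjusted p 0.248). Psmb5, which had no call in either comparison, had -0.42 (95% interval -0.85 to 0.0089). With 3 mice a group these intervals are wide, so a gene without a call may still differ between the groups. Without the column scaling 7 genes fell in KO_secGAA against KO_PBS (6.53% of all genes fell) and none rose (0.778%): Psma4, Psma5, Psmc1, Psmc3, Psmd4, Psmd13 and Psme2. The core median was then -0.20 and the regulatory median -0.23, beside a median of -0.14 for all genes, and the groups did not overlap for 32 of the 44 genes, against 29.0% of all genes.

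Against the wild-type mice, 2 genes passed in the treated mice. In KO_secGAA against WT_PBS, Psmd11 and Psmd5 rose and no gene of the 44 fell, where 1.83% of all genes rose and 1.89% fell. At an unadjusted p under 0.05 in limma, 4 genes rose and 0 fell, against 2818 of all 13089 genes in either direction. By edgeR, DESeq2 and voom, 0 of the 44 fell too. Psmd11 had a log2 fold change of 0.51 (SE 0.11, adjusted p 0.0346) and Psmd5 one of 0.46 (SE 0.10, adjusted p 0.0430). Neither call held in every fit. That of Psmd11 was lost without any WT_PBS mouse, KO_PBS mouse 2 or 3, or KO_secGAA mouse 2 or 3 (adjusted p up to 0.127). That of Psmd5 was lost without any WT_PBS mouse, KO_PBS mouse 3 or any KO_secGAA mouse (adjusted p up to 0.137). The log2 fold changes in these fits were 0.43 to 0.61 for Psmd11 and 0.43 to 0.51 for Psmd5. The class medians were 0.012 for the core and -0.011 for the regulatory subunits. The groups did not overlap for 8 of the 44 genes, against 26.9% of all genes. Psma5 also passed with quantile normalization (0.32, adjusted p 0.0478). Without the column scaling, 7 genes rose (6.63% of all genes) and none fell (1.06%): Psma1, Psma5, Psmb1, Psmc3, Psmc6, Psmd5 and Psmd11. The core median was then 0.17 and the regulatory median 0.15, beside 0.16 for all genes, and the groups did not overlap for 28 of the 44 genes, against 32.8% of all genes.

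Proteins that work beside the named subunits were listed separately. Of 10 tested partners of the proteasome without a Psm name, 3 rose and 1 fell in KO_PBS against WT_PBS, where 10.9% of all genes rose and 11.0% fell. Txnl1, a thioredoxin-like protein bound to the regulatory particle, had normalized counts of 46.8, 47.3 and 50.4 (WT_PBS), 70.9, 66.5 and 67.6 (KO_PBS) and 50.3, 51.8 and 51.8 (KO_secGAA), with a log2 fold change of 0.50 (adjusted p 0.00137). The KO_PBS mice were above all others for Txnl1, which fell again in KO_secGAA against KO_PBS by 0.41 (adjusted p 0.0184). Akirin2, which brings proteasomes into the nucleus, rose with a log2 fold change of 0.69 (adjusted p 0.0258). Ube3c, a ubiquitin ligase bound to the proteasome, fell by 0.37 (adjusted p 0.0196). Pomp, the maturation factor of the core, was the remaining riser, at 0.28 (adjusted p 0.0267), and was named after its value was seen, so that every call is given.

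Among 8 genes known to control proteasome genes, 1 rose. In the deposited values, this list and those that follow had at most 1 call each in a direction. Such counts are near the 10.9% and 11.0% of all genes. Nfe2l2, the factor that binds antioxidant response elements, had normalized counts of 35.3, 39.4 and 41.7 (WT_PBS), 55.7, 51.7 and 46.9 (KO_PBS) and 52.7, 54.9 and 57.6 (KO_secGAA), with a log2 fold change of 0.40 (adjusted p 0.0151). It was also higher in KO_secGAA against WT_PBS (0.50, adjusted p 0.0227), and both Gaa-deficient groups were above every WT_PBS mouse. Nfe2l1 had a log2 fold change of 0.075 in KO_PBS against WT_PBS (adjusted p 0.608). Of 12 tested genes that deliver substrates to the proteasome, Nploc4, a cofactor of the unfoldase Vcp, rose (0.51, adjusted p 0.00881), Ubqln4, a ubiquitin shuttle, fell by 0.36 (adjusted p 0.00734), and 10 did not pass. Of 6 ubiquitin and E1 genes, Rps27a, a fusion of ubiquitin with a ribosomal protein, rose (0.49, adjusted p 0.00921). Neither fall passed without the column scaling, where Ube3c had -0.052 and Ubqln4 -0.046. In that fit 6 of 10 partners, 4 of 8 regulators, 11 of 12 delivery genes and 3 of 6 ubiquitin and E1 genes rose. None of them fell, where 34.1% of all genes rose and 3.95% fell. Nfe2l1 was among the risen regulators there (0.39, adjusted p 0.00655). The interferon-inducible subunits had no call in limma on the deposited values, nor in edgeR, DESeq2 or voom. In limma 1 of the 3 had an unadjusted p under 0.05. Their log2 fold changes were 0.19 (Psmb8), 0.22 (Psmb9) and 0.43 (Psmb10, adjusted p 0.0600). Their summed levels were 20.6 to 26.1 (WT_PBS), 26.6 to 34.1 (KO_PBS) and 19.8 to 36.7 (KO_secGAA) normalized counts. Without the column scaling Psmb10 alone of the 3 rose in KO_PBS against WT_PBS (0.73, adjusted p 0.00647). In KO_secGAA against KO_PBS, Txnl1 was the one partner that passed in the deposited values. Without the column scaling 2 of 10 partners fell, Txnl1 and Pomp (-0.37, limma adjusted p 0.0150 for Pomp). In that fit 2 of 12 delivery genes and 0 of 8 regulators fell, where 6.53% of all genes fell. The calls that follow are for the deposited values and the recovered reads. No regulator or delivery gene passed with limma, edgeR or voom (0 regulators and 2 delivery genes at an unadjusted p under 0.05 in limma), and DESeq2 gave 1 fallen delivery gene, Nploc4.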

How the data were processed

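Polyadenylated RNA of quadriceps muscle was sequenced in 9 libraries, 1 per mouse, as single-end reads of 61 bp, per the labels' protocols. Of the tools, edgeR, limma, RSEM, cutadapt and CASAVA are named with the build GRCm38 in the submitters' processing notes, without roles or versions. Whether strand was used in counting is not given in the sources used here. Per the file headers, the values the authors deposited are normalized counts, a signal on a linear scale. For 100% of 118044 values it gave whole reads (relative tolerance 1e-06), as (reads + 0.5) per 1000000 of a library size scaled by edgeR's TMM factors. The values "without column scaling" are the recovered reads per 1000000 of the library's total. limma 3.58.1 in R 4.3.3 fitted group means to log2(value + 0.5), with a trend, no covariate and 6 residual degrees of freedom. Tested genes reached 1 or more in 3 or more libraries. edgeR 4.0.16, DESeq2 1.42.0 and limma-voom on recovered reads were alternatives, besides other scalings, pseudocounts of 0.1 and 2, no filter or a filter at 5, fits of 2 groups, and leaving out each library. The fit was tested on simulated data. Exon lengths come from GENCODE M21, and promoter windows from RefSeq (GRCm38.p6). No window was found for 7 members.

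The members and lists were chosen with earlier results of these data known. Values in every mouse are given for members that passed in a comparison (up to 4 per class and comparison by adjusted p), and in any case for the catalytic subunits, Psmd2, Psmd4, Psmd14, the activators, the inhibitor and the subunits nearest the class medians. Up to 3 genes per pathway list are named, by adjusted p. Whether littermates or batches were shared is not stated, so p-values measure the spread between these mice.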

Additional observations from a re-analysis of the deposited data

How the results depend on the processing

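Calls kept in all 20 alternatives were those of Psma5, Psmd5, Psmd11 and Psme2 in KO_PBS against WT_PBS, and no gene that passed reversed. Without the column scaling, 36 genes rose and 0 fell in KO_PBS against WT_PBS (medians 0.32 core, 0.41 regulatory). In KO_secGAA against KO_PBS 7 fell (medians -0.20 and -0.23), and in KO_secGAA against WT_PBS 7 rose (0.17 and 0.15). Under quantile normalization 8 genes rose in KO_PBS against WT_PBS (Psmb1 and Psmd4 gained, Psmg4 lost), and with DESeq2's size factors 5 (Psmc3 and Psmc6 lost). With voom 1 gene rose in KO_secGAA against WT_PBS. In fits of only the 2 groups compared, 0 fell in KO_PBS against WT_PBS, 0 fell in KO_secGAA against KO_PBS and 0 rose in KO_secGAA against WT_PBS. Leaving out 1 library gave these ranges. For KO_PBS against WT_PBS, 4 to 7 genes rose and 0 to 1 fell, with medians of -0.019 to 0.053 (core) and 0.042 to 0.10 (regulatory) and a core minus regulatory difference of -0.092 to -0.050. For KO_secGAA against KO_PBS, 0 to 1 fell, with medians of -0.099 to 0.047 and -0.14 to -0.033 and a difference of 0.017 to 0.080. For KO_secGAA against WT_PBS, 0 to 2 rose, with medians of -0.029 to 0.063 and -0.044 to 0.031 and a difference of -0.030 to 0.032. The 7 risen genes became 4 without WT_PBS mouse 2 or 3, where the risen genes of all tested went from 1430 to 1094 and 909. No paired analysis was possible because the labels give the mice no shared replicate numbers. Psmc3ip and Psmg4 had the fewest reads in a library (14 and 50). They also had the largest SEs of the 44 genes in KO_PBS against WT_PBS, at 0.23 and 0.21. Psmb5 followed at 0.19 although it had 1212 reads or more. The largest SD within groups, 0.29 on the log2 scale, was that of a core subunit.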
